A study of Mus musculus with 2 samples.

Results

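The genes of the cytosolic ribosomal proteins were taken from GENCODE M21 by symbol: every protein-coding gene whose symbol starts with Rps or Rpl and a digit, and Rpsa, Rplp0, Rplp1 and Rplp2, without the S6 kinase genes, Rps19bp1 and symbols ending in -ps. The rule gave 85 of 21951 protein-coding genes, 33 of the small and 52 of the large subunit. Their m6A sites were read from 2 GLORI libraries of poly(A)+ RNA, 1 of the cerebellum and 1 of the cerebrum, each from a female F1r mouse at P0 (the day of birth), F1r being the offspring of a C57 (C57BL/6J) mother and a PWK (PWK/PhJ) father. Both libraries therefore carry 1 C57 and 1 PWK copy of each autosome, and the alleles were not separated. In GLORI, glyoxal and nitrite deaminate unmethylated adenosines, so that reads show G there, while methylated adenosines are left as A.

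Ribosomal protein mRNAs are short, abundant messages with small exons. Most of them begin with a terminal oligopyrimidine tract, through which LARP1 and the mTOR pathway set their translation. N6-methyladenosine is written by the METTL3-METTL14 complex at adenosines within the motif DRACH (any base but C, then a purine, then AC, then any base but G). It is known to be frequent near stop codons and in long exons and scarce next to exon junctions, where exon junction complexes bind.

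The deposited lists give positions alone, so each adenosine was either listed as a site or not, and its methylation rate, read number and gene level were unknown. A position that was not listed may have been unmethylated, methylated at a rate of 0.1 or less, unexpressed or too thinly covered. With 1 library a tissue and no replicate, no difference was tested, and every interval below covers counting error over sites or genes only. The tissue labels were checked on 20 marker genes. All 10 forebrain genes (such as Tbr1, Fezf2 and Neurod6) had more sites in the cerebrum, with 248 sites against 26. The cerebrum list is longer as a whole (188295 sites against 79355), and no share over all genes is set beside this count. Of 10 hindbrain genes, 4 (En1, En2, Barhl1 and Lhx1) had more sites in the cerebellum, with 42 sites against 5 over the list. Gbx2 had 3 in each library, and Atoh1, Ptf1a, Hoxa2, Hoxb2 and Pax2 had 0 in both libraries.

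Exons of the ribosomal protein genes held 61 of the 79355 sites of the cerebellum library and 156 of the 188295 sites of the cerebrum library. Of these, 32 were the same position in both libraries, and 185 were listed in either. Only 33 of the 61 cerebellum sites (54.1%, 95% Wilson interval 41.7 to 66.0) and 40 of the 156 cerebrum sites (25.6%, 19.4 to 33.0) lay within DRACH, against 73.7% and 59.9% of the sites of other coding genes. Among the 32 shared positions, 23 (71.9%) lay within DRACH. Sites outside DRACH were 28 in the cerebellum and 116 in the cerebrum, and 9 of them were shared. Because most of those sites were found in 1 library, the description below rests on DRACH sites.

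Sequences of shared DRACH sites are given below, and the motif itself was a condition of their choice. The first set holds shared sites on the isoforms of the members with most DRACH sites, though not all of them (another shared site of Rpl22, a GAACT 1326 nt past the stop codon, is left out), and each line gives the transcript strand of GRCm38 with 10 nt on either side of the methylated A. Capitals mark the 5-mer, whose central A is the site.
Rps15a, chr7:118109059-118109079, minus strand, 31 nt past the stop codon: gcctttgtGGACTgtgctcag
Rps15a, chr7:118108398-118108418, minus strand, 692 nt past: ttccccagAGACTtgtcttcc
Rps15a, chr7:118108235-118108255, minus strand, 855 nt past: agcccctcGGACTtgtctgtt
Rps15a, chr7:118108099-118108119, minus strand, 991 nt past: ctacccccAGACTttgctcag
Rpl4, chr9:64178473-64178493, plus strand, 39 nt past: gcaagtagAGACCgcatattt
Rpl4, chr9:64178520-64178540, plus strand, 86 nt past: cccttgtgTGACTcttaaatt
Rpl22, chr4:152332532-152332552, plus strand, 118 nt past: aatgacagGGACTttaactgg
Rpl22, chr4:152332565-152332585, plus strand, 151 nt past: ttgtatatAGACActtttttc
Rpl7l1, chr17:46775417-46775437, minus strand, 321 nt past: cccctccaAGACTgttagagc

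The second set was chosen after the values were seen: 3 of the 9 shared sites that lay within 50 nt past the stop codon, all with letters of the polyadenylation signal beside the 5-mer.
Rpl13a, chr7:45125924-45125944, minus strand, 12 nt past the stop codon: cccaataaAGACTgtttgcct
Rps15, chr10:80294086-80294106, plus strand, 16 nt past: gccaataaAGACTggttttgg
Rpl26, chr11:68904513-68904533, plus strand, 30 nt past: ttcattaaAGACTgcttaagt

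All of these lay in the 3′ UTR within the last exon. GGACT and AGACT, which differ in the first base alone, made up 9 and 7 of the 23 shared DRACH sites. In the cerebellum they were 13 and 7 of 33 sites, and in the cerebrum 10 and 8 of 40. No share in other genes is set beside these counts, so they are not read as particular to the members.

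A minority of the ribosomal protein genes had a DRACH site. In the cerebellum 19 of 85 had at least 1 (22.4%, exact binomial interval 14.03 to 32.7), where 34.4% of all coding genes with a DRACH adenosine did. In the cerebrum 25 of 85 had one (29.4%, 20.02 to 40.3), where the share over all such genes was 44.3%. The same position was listed in both libraries in 15 members (17.6%, 10.2 to 27.4) and in 31% of all such genes. Each of the 3 intervals over members ended below the share over all genes. Counting sites of any kind the order was mixed: 30 members (35.3%) against 39.8% of all genes in the cerebellum, and 56 members (65.9%) against 55.9% in the cerebrum. Over both libraries 29 members had a DRACH site, 30 had sites outside DRACH alone, and 26 had no site.

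The DRACH sites were not spread evenly over the members, and no expected spread is set beside these counts. In the cerebellum 8 members had more than 1 DRACH site, and the 5 members with most held 16 of the 33. In the cerebrum 8 members had more than 1, and the 5 with most held 17 of the 40. By subunit, 8 of 33 small-subunit and 11 of 52 large-subunit genes had a DRACH site in the cerebellum, and 11 and 14 in the cerebrum.

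Measured against opportunity, the DRACH rate, which is the percentage of the DRACH adenosines in a gene's exons that were listed as sites, was low in the ribosomal protein genes. In the cerebellum 33 of 3104 DRACH adenosines were sites (1.06%, Wilson interval 0.758 to 1.49), against 4.13% in the 8696 other coding genes that carried any site and a DRACH adenosine. In the cerebrum 40 of the 3104 were sites (1.29%, 0.948 to 1.75), against 5.52% in 12197 such genes. The rate of the members was thus 0.257 times that of other site-carrying genes in the cerebellum and 0.234 times in the cerebrum. The small-subunit genes had rates of 1.12% (0.669 to 1.87) and 1.36% (0.852 to 2.17), and the large-subunit genes 1.02% (0.657 to 1.59) and 1.24% (0.828 to 1.85), with overlapping intervals.

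The size of this gap depended on the genes taken for comparison. Carrying a site is what put a gene into the reference, while the members were counted with and without sites. Against all other coding genes, whose rates were 2.33% and 4.01%, the ratios were 0.456 and 0.321. When only members that carried a site were kept (30 in the cerebellum and 56 in the cerebrum), their rates were 2.64% and 1.74%, or 0.639 and 0.315 times the rate of the other carriers. All 6 ratios were below 1.

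**Figure D1:**
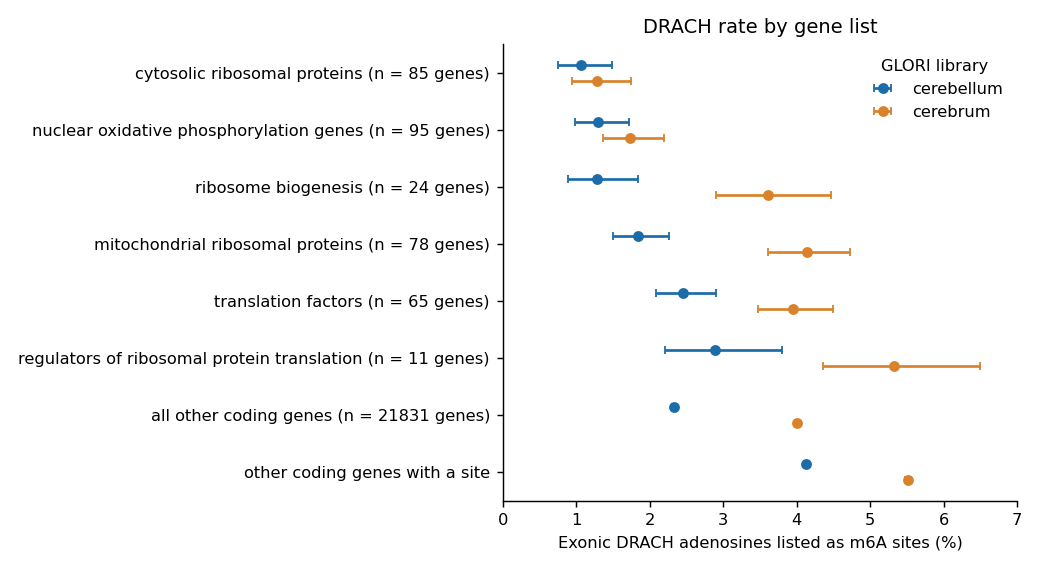
DRACH rate (x axis, percent of exonic DRACH adenosines listed as sites) of 8 lists of coding genes in the cerebellum library (blue) and the cerebrum library (orange). Points are pooled rates and bars 95% Wilson intervals, which are narrower than the points for the 2 lists of other coding genes. The cytosolic ribosomal protein genes lie at 1.06% and 1.29%, the lowest point in each library.

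Other genes of translation and of short, abundant messages were counted from lists chosen by symbol or name. The 78 mitochondrial ribosomal protein genes, which encode the separate ribosome of mitochondria, had rates of 1.84% in the cerebellum and 4.13% in the cerebrum, and 41 and 61 of them had a DRACH site. The 65 translation factor genes had 2.46% and 3.95%, with a DRACH site in 37 and 51. The 24 ribosome biogenesis genes had 1.28% and 3.61%. Of these Ncl (nucleolin) had the most DRACH sites, 9 (cerebellum) and 13 (cerebrum), whereas Npm1, Fbl, Bop1 and Ltv1 had 0 in both. The 11 regulators of ribosomal protein translation had 2.90% and 5.33%. Among these, Larp1, which binds the oligopyrimidine tract, had 12 and 17 DRACH sites, and Rps6kb1, the kinase of RPS6, had 15 and 21. They were the regulators with most, whereas Eif4ebp1 had 0 in both libraries and Rheb and Cnbp had 0 and 1 each.

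The 95 nuclear genes of oxidative phosphorylation were near the ribosomal proteins in both libraries, and the biogenesis genes in the cerebellum. The oxidative phosphorylation genes had rates of 1.30% (0.988 to 1.72) and 1.73% (1.36 to 2.20), and 28 and 34 of them had a DRACH site. Both intervals overlapped those of the ribosomal protein genes.

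The structure of the members differed from that of the genes they were compared with. For each gene 1 principal isoform was taken (a complete coding transcript, best APPRIS rank, then longest). The median ribosomal protein isoform had 886 nt in 5 exons, a coding sequence of 453 nt, a last exon of 203 nt and a 3′ UTR of 87 nt. Other coding genes with a site in the cerebellum had medians of 3632 nt, 9 exons, 1515 nt, 1800 nt and 1428 nt. DRACH adenosines were nearly as dense, at 18.5 per kb against 20.2. However, 53.6% of those of the members lay within 100 nt of an exon junction, against 36.9%.

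Within the isoforms, DRACH sites of the members lay at the 3′ end. In the cerebellum 28 of the 33 DRACH sites were on the isoform, with 23 in the 3′ UTR, 5 in the coding sequence and 0 in the 5′ UTR. In the cerebrum 36 of the 40 were, with 29, 7 and 0. All 20 shared sites on the isoform lay in the 3′ UTR, and 9 of them lay within 50 nt past the stop codon. The members' own DRACH adenosines were placed otherwise: 810 were in coding sequence, 611 in the 3′ UTR and 234 in the 5′ UTR, out of 1655.

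**Figure D2:**
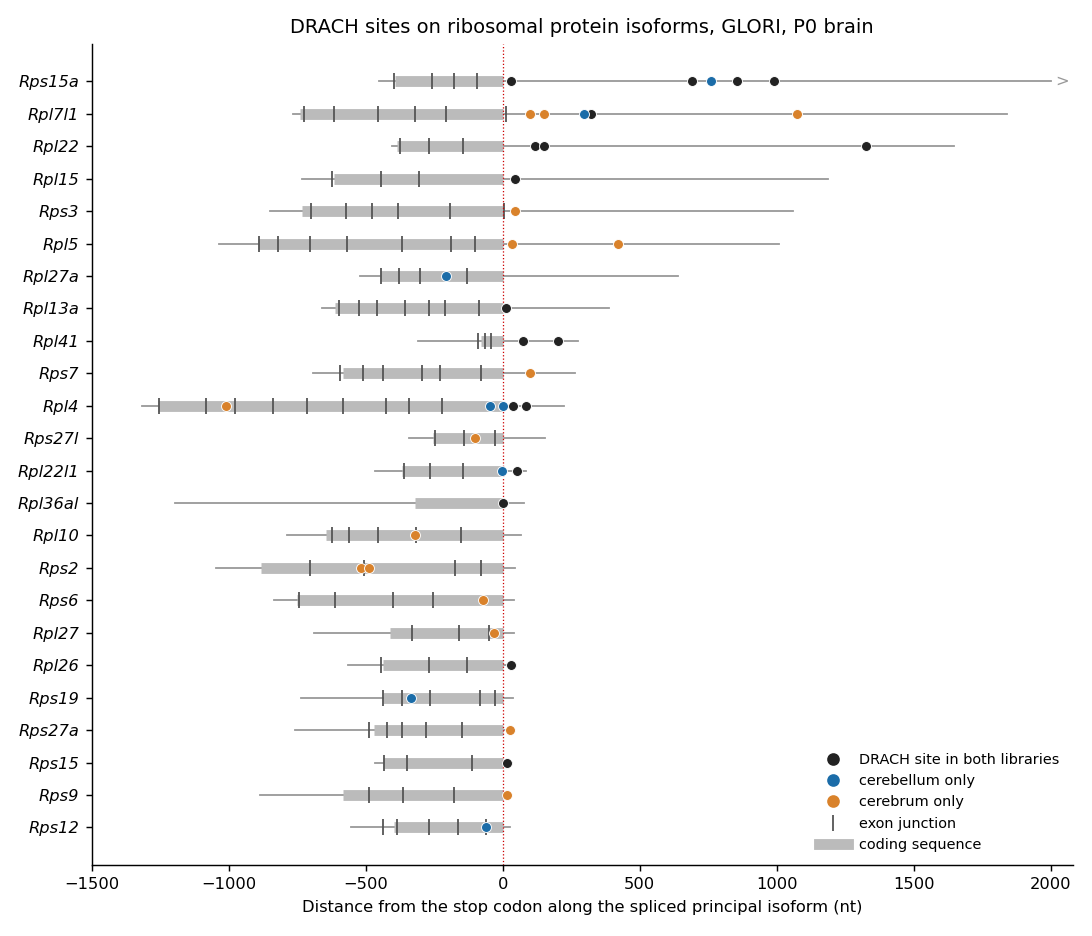
DRACH sites on the principal isoforms of 24 of the 26 ribosomal protein genes that have one there, to scale and aligned at the stop codon (x axis, nt; the longest isoform runs on past the axis). Thick bars are coding sequence, thin lines UTRs and ticks exon junctions; black points are sites of both libraries, blue of the cerebellum and orange of the cerebrum. All 18 black points drawn lie past the stop codon, whereas the points in coding sequence belong to 1 library each.

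By region, the rate in the 3′ UTR was 3.76% (2.52 to 5.59) in the cerebellum and 4.75% (3.32 to 6.73) in the cerebrum, against 6.97% and 9.14% in other site-carrying genes. In the coding sequence it was 0.617% (0.264 to 1.44) and 0.864% (0.419 to 1.77), against 4.85% and 6.52%. The 5′ UTR, where the oligopyrimidine tract lies, had 0 of 234 in both libraries, which allows up to 1.62% (Wilson), against 3.11% and 3.82%. Some of these annotated 5′ UTRs are long, such as 2375 nt in Rpl18 against a median of 121 nt over the members. Whether they were expressed in the samples could not be read from the lists. Within 50 nt past the stop codon, 10 of 97 DRACH adenosines (10.3%, 5.70 to 17.9) were sites in the cerebellum and 13 of 97 (13.4%, 8.002 to 21.6) in the cerebrum. Other genes had 16.1% and 19.7%, within both intervals. The order here turned with the uniqueness of the sequence. Where the 31 nt around the adenosine (with A read as G) match no other place in the genome, 6 of 19 were sites in each library (31.6%, 15.4 to 54.0), above 16.2% and 19.7% in other genes but with an interval that reaches below both. Where they recur or are cut by the transcript end, 4 of 78 (5.13%, 2.01 to 12.5) and 7 of 78 (8.97%, 4.42 to 17.4) were, against 16.02% and 18.7%. From 51 to 200 nt past the stop codon the members had 4.84% and 7.26%, against 18.6% and 21.9%.

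Distance to an exon junction went with the rate in both groups of genes. Among the members, 4 of 887 DRACH adenosines within 100 nt of a junction (0.451%, 0.176 to 1.15) were sites in the cerebellum, and 24 of 768 farther away (3.13%, 2.11 to 4.61). The cerebrum had 9 of 887 (1.01%, 0.535 to 1.92) and 27 of 768 (3.52%, 2.43 to 5.07). In other site-carrying genes the rates near and far were 1.11% and 8.46% in the cerebellum, and 1.70% and 11.2% in the cerebrum. Thus the members rose from near to far as the others did, and stayed below them far from junctions.

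At 0 to 50 nt from a junction the members could not be told from the others: 0.305% (0.0836 to 1.10) against 0.481% in the cerebellum, and 1.07% (0.518 to 2.19) against 0.900% in the cerebrum. At over 200 and up to 400 nt they were apart, with 4.97% (2.64 to 9.18) against 15.3% and 3.87% (1.89 to 7.77) against 19.1%. Of the shared sites, 0 of 656 adenosines within 50 nt of a junction and 19 of 768 beyond 100 nt were listed.

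**Figure D3:**
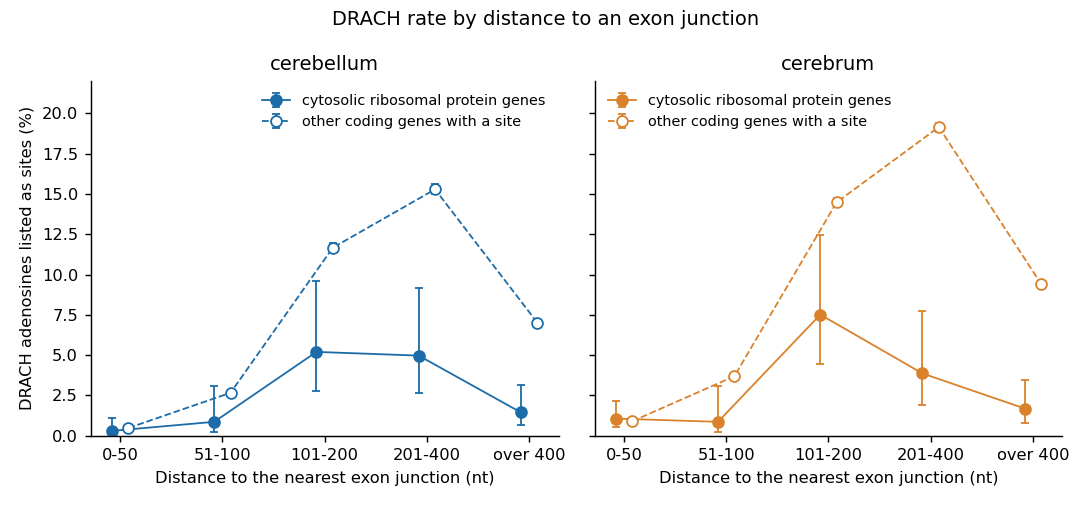
DRACH rate (y axis, percent) in 5 classes of distance to the nearest exon junction of the principal isoform (x axis, nt), for the ribosomal protein genes (filled points, solid line) and other site-carrying coding genes (open points, dashed line), in the cerebellum (left) and the cerebrum (right). Bars are 95% Wilson intervals; the 2 lines meet at 0 to 50 nt and lie apart beyond 100 nt.

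To set the count against sequence and structure together, the rates of other site-carrying genes in each combination of 5-mer, region and distance class were applied to the members' DRACH adenosines. In the cerebellum 78.8 sites were expected and 28 observed, a ratio of 0.355 (exact Poisson interval 0.236 to 0.514). In the cerebrum 100.04 were expected and 36 observed, a ratio of 0.360 (0.252 to 0.498). With no classes at all, 95.05 and 125.05 sites were expected, and the ratios were 0.295 and 0.288. Only the expected number differs between these ratios and those above, so the interval does not measure the shift. The part of 5-mer, region and distance in the ratio was not tested. With all other coding genes as the reference, whether or not they carried a site, the ratios were 0.689 and 0.525.

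By the same measure oxidative phosphorylation genes had 0.417 (0.308 to 0.553) and 0.407 (0.310 to 0.525), close to the ribosomal proteins. Mitochondrial ribosomal proteins had 0.461 (0.370 to 0.568) in the cerebellum and 0.786 (0.680 to 0.904) in the cerebrum. Translation factors had 0.667 and 0.801, and ribosome biogenesis genes 0.344 and 0.800. The regulators of ribosomal protein translation had 0.932 (0.689 to 1.23) and 1.30 (1.05 to 1.60).

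Ribosomal protein genes have many pseudogene copies, to which reads may also map. A 31-nt window of the spliced isoform was taken around each DRACH adenosine, with A read as G as in a GLORI read. It was single, with no match in GRCm38 beyond its own place, for 44.0% of the members' isoform adenosines. In other genes with a site in the cerebellum the share was 90.7%. Windows across a junction, which have no genomic place of their own, counted as single when they matched nowhere, and windows cut by a transcript end counted as repeated. Among these single windows alone the ratio of observed to expected sites was 0.299 in both libraries (16 against 53.5, and 20 against 66.8). Among repeated windows it was 0.532 (12 against 22.6) and 0.556 (16 against 28.8). The ratio among single windows was no nearer to 1 than over all windows, but the 2 kinds of window differ in place. Of the members' single windows 26.1% lay in the 5′ UTR and 13.4% in coding sequence, against 4.75% and 76.9% of repeated ones. A 31-nt window also does not measure where whole reads map, so the part of other copies in the ratios was not tested. Some listed sites lie in repeated windows, such as both shared DRACH sites of Rpl41, with 6 and 11 genomic matches, and may come from another copy, which was not tested.

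Among the members with most DRACH sites, several have long 3′ UTRs. Rps15a, a small-subunit protein gene at chr7:118104372-118116188 on the minus strand, had 5 cerebellum and 4 cerebrum DRACH sites, and those 4 were all shared. Its annotated 3′ UTR of 4728 nt is the longest among the members, and of its 88 isoform DRACH adenosines 5.34 and 7.15 were expected to be sites. The sites fall as 1 next to the stop codon and a group from 692 to 991 nt past it.

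Rpl22, whose protein sits on the surface of the large subunit, had 3 DRACH sites in each library, the same 3 positions, with 3.46 and 4.36 expected. Its paralog Rpl22l1 had 2 and 1, and the latter was shared and lies in a window with 3 genomic matches. Rpl7l1, a paralog of Rpl7, had 2 in the cerebellum and 4 in the cerebrum with 1 shared, so 3 of its positions were listed in the cerebrum alone. Each of these 3 genes carried DRACH sites downstream of the stop codon in both libraries.

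Rpl4, whose protein reaches into the exit tunnel, has a 3′ UTR of 222 nt, against a median of 87 nt over the members. It had 4 DRACH sites in the cerebellum against 1.88 expected and 3 in the cerebrum against 2.23, and the 2 shared ones lay 39 and 86 nt past the stop codon. The counts are small, and Rpl4 was named for its number of DRACH sites, so nothing is read from their excess. Rpl41, Rpl26 and Rps15 were also above their expectation in both libraries. Rpl41, which encodes a peptide from 75 nt of coding sequence, had 2 shared DRACH sites, at 72 and 200 nt past the stop codon, both in repeated windows. Rpl36al, a paralog of Rpl36a in 1 exon, had 1 shared site 2 nt past the stop codon. It also lies in a repeated window, with 3 genomic matches.

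A long 3′ UTR did not always go with sites. Rps20, a small-subunit gene with an annotated 3′ UTR of 3167 nt and 70 isoform DRACH adenosines, had 0 DRACH sites in both libraries, where 5.11 and 6.68 were expected. Its 3 sites, all of the cerebrum, lay outside DRACH. Rps24, with a 3′ UTR of 1173 nt, had 0 DRACH sites against 2.89 and 3.62 expected. Whether these long 3′ UTRs were expressed in the samples could not be read from the lists. When the shortest of equally ranked isoforms was taken for each gene instead, which leaves 1291 DRACH adenosines in the members, the ratios of observed to expected sites were 0.332 and 0.341. Of the 44 members with a last exon over 200 nt, 11 had a DRACH site in the cerebellum and 17 in the cerebrum, and of the 41 others 8 in each.

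**Figure D4:**
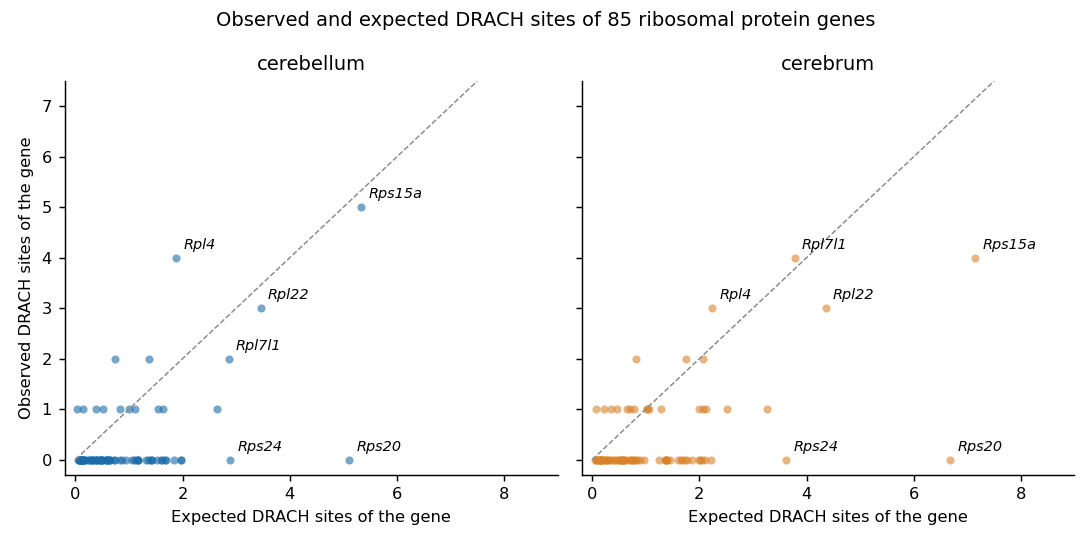
Observed DRACH sites of each of the 85 genes (y axis) against the number expected from its 5-mers, regions and distances to junctions at the rates of other site-carrying genes (x axis), in the cerebellum (left) and the cerebrum (right); the dashed line marks equality. Rpl4 lies above the line in both libraries, with 4 against 1.88 and 3 against 2.23, as do Rpl41, Rpl26 and Rps15, and Rps20 and Rps24 lie at 0.

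The 12 members named for known roles differed among themselves, and no lack of DRACH sites is read from them. Rpl22 had 3 DRACH sites in each library and Rpl13a had 1 in each, at the same positions. Over all members, 29 of 85 had a DRACH site in either library. Rpl5 and Rpl11, which carry the 5S rRNA and bind MDM2 when ribosome assembly fails, had 0 DRACH sites in the cerebellum. In the cerebrum Rpl5 had 2, at 32 and 420 nt past the stop codon, and Rpl11 had 0. Outside DRACH Rpl5 had 3 cerebellum and 7 cerebrum sites, with 0 shared, and with 12 sites of any kind in either library it had the most of all members. Rpl11 had 0 and 3 outside DRACH. Rps6, the substrate of the S6 kinases, had 0 and 1. Rps3, at the mRNA entry, also had 0 and 1, whereas Rps19, mutated in Diamond-Blackfan anaemia, and Rps12 had 1 and 0. Rpl10, which is added late to the large subunit, had 0 and 1. The DRACH sites of Rps6 and Rps19 and the Rpl5 site at 32 nt lie in repeated windows, with 19, 8 and 5 genomic matches. They may come from another copy, which was not tested.

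Rpsa (also known as the laminin receptor) and the stalk proteins Rplp0, Rplp1 and Rplp2 had 0 DRACH sites in both libraries. The only site of any kind in these 4 genes was 1 in Rplp2, outside DRACH, in the cerebrum. Among the named paralogs Rpl3l, Rpl10l, Rpl39l and Rps27rt had no site at all, and Rps27l had 1 DRACH site in the cerebrum. Rpl3l is known from muscle, and Rpl10l and Rpl39l from testis. Leaving the paralogs out, the ratios of observed to expected sites were 0.327 and 0.326.

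The DRACH sites off the isoforms all lay in small nucleolar RNAs. These guide the modification of other RNAs and are hosted in introns of ribosomal protein genes, and transcripts that retain the intron put them into exons here. The cerebellum had 5 of them and the cerebrum 4, with 3 shared. The hosts included Rps2 (Snora64, with 2 cerebellum sites and 1 cerebrum site), Rps13 (Snord14a, the cerebellum alone) and Rpl21 (the snoRNA gene Gm25091, the cerebrum alone). Thus the shared DRACH site of Rps2 belongs as well to an annotated snoRNA. Signal from the snoRNA and from an unspliced host message cannot be told apart in these lists. The shared site in Snora64 is shown with its 5-mer in capitals.
Rps2, within Snora64, chr17:24720844-24720864, plus strand: ttccttcaGGACTttggattg

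In the 3 sequences just past the stop codon of the second set, the methylated A follows close on letters of the polyadenylation signal: AATAAA in Rpl13a and Rps15 and ATTAAA in Rpl26, each sharing its last A with the AGACT. This was seen first and then counted. AATAAA or ATTAAA, read on the transcript strand within 10 nt on either side, stood next to 57 of the 611 DRACH adenosines in the members' 3′ UTRs (9.33%), against 3.0% in other genes with a site in the cerebellum. The reverse complements TTTATT and TTTAAT stood next to 1.964% and 1.29%. The members' 3′ UTRs were shorter, with a median of 87 nt against 1428 nt, and the lists were not matched for length. The part of length in the larger share was not tested. Of the 57, the cerebellum list held 4 (7.02%, 2.76 to 16.7), the cerebrum list 5 (8.77%, 3.81 to 18.9) and both lists 3. Without these letters the members' rates were 3.43% (2.21 to 5.29) and 4.33% (2.93 to 6.37), and the intervals overlapped. In other genes the rate next to the letters was 5.33% (cerebellum) and 6.36% (cerebrum), below the 7.02% and 9.23% without them. The Rpl13a site also lies in an exon of Gm45713, an overlapping coding gene on the same strand.

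Agreement between the libraries was set against that of other genes. Of the members' 33 DRACH sites in the cerebellum, 23 (69.7%, 52.7 to 82.6) were also listed in the cerebrum, against 83.3% for other coding genes. Of their 40 in the cerebrum, 23 (57.5%, 42.2 to 71.5) were listed in the cerebellum, against 48.4%. Outside DRACH the shares were 32.1% (17.9 to 50.7) and 7.76% (4.14 to 14.1), against 40.2% and 12.4%. On the isoforms, sites outside DRACH lay mostly in coding sequence, with 14 of 24 in the cerebellum and 51 of 80 in the cerebrum. The cerebrum list is longer as a whole, and the depth of neither library is known, so a site listed in 1 tissue is not shown to differ between the tissues.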

How the data were processed

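Each tissue, cerebellum and cerebrum, has 1 GLORI library of poly(A)+ RNA. Reads were mapped to mm10 and to its PWK version, and the union of the sites that GLORI-tools (version 1.0) called on either genome was kept where the rate exceeded 0.1 and the reads exceeded 8. The lists the authors deposited hold positions and strands with no score or read count, so depth is unknown and no interval covers it.

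Positions were looked up in GRCm38 with the GENCODE M21 annotation; the methods name release 26. A site was assigned to every coding gene with an exon there on the same strand, and DRACH was read in the genome (exon union) or in the spliced principal isoform. Of the members' cerebellum sites, 1 lies at a base other than A in mm10. Groups came from the GEO labels, and no test was made.

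The members and lists were chosen with earlier results of these data known. Named genes are the 12 members with most DRACH sites in either library, all named paralogs and 12 members of known roles; others (Rps20, Rps24, Rps13, the examples of other lists and the second set of sequences) were chosen after their values were seen. Rps4l was on the list of paralogs but is not among the members. Sequences were chosen among DRACH sites of both libraries. Alternatives concerned the exons counted, sites of both libraries, the motif, the reference genes, paralogs, window uniqueness and the distance limit. The computation of expected sites was tested on simulated data. Python 3.11.15 was used with numpy 2.4.6, pandas 2.3.3, scipy 1.17.1, numba 0.67.0 and matplotlib 3.10.9. Some named items are not reported here.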

Additional observations from a re-analysis of the deposited data

Results flagged for a closer look

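Introns of the ribosomal protein genes, which no comparison above uses, held 4 sites in the cerebellum (in 4 genes) and 13 in the cerebrum (in 9 genes), 3 of them in both libraries. The 307 named ribosomal protein pseudogenes held 1 site in the cerebellum and 4 in the cerebrum, in 3 genes, of which 1 was in both. The cerebrum count of the pseudogenes lies above the 3 counts that a count of 0 allows, which says only that it is not 0. No share over other pseudogenes is set beside it. The part of either in the sites assigned to the members was not tested.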

How the results depend on the processing

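Of 74 values under alternatives, 58 moved by less than the counting interval and 16 by more, and none crossed from below 1 to above it among the ratios. On 1 isoform a gene the members' DRACH rates were 1.69% in the cerebellum and 2.18% in the cerebrum, and with sites of both libraries alone 0.741%, where 17.6% of members had a DRACH site and 71.9% of their sites were DRACH. Against all other coding genes the rate ratios were 0.456 and 0.321, and the ratios of observed to expected sites 0.689 and 0.525. Between carriers alone the rate ratio in the cerebellum was 0.639. Further alternatives were chosen after seeing the data: single 31-nt windows on 1 isoform gave rate ratios of 0.368 and 0.349, other genes with isoforms of 1000 nt or less gave 0.272 and 0.347, and the shortest of tied isoforms gave 0.248 and 0.247. Leaving out the paralogs and counting single windows in the observed to expected ratio, also added later, moved it by less than its interval. Over 200 nt from a junction the cerebrum rate was 2.35%. The limits on methylation rate and read number in the authors' calling and the unknown level of each gene bound what an unlisted position can show. No paired analysis was possible because each tissue has 1 library and no replicate.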
